A study of Homo sapiens with 72 samples.

Results

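Of the 72 wells of the population RNA-seq series, 6 held U2OS cells with the 2 higher doses of homoharringtonine, 3 wells at 10000 nM and 3 at 1000 nM, and the comparison was between these doses. The wells were chosen by their titles and their dose label. U2OS is an established human osteosarcoma line, and every well was harvested after 12 h of treatment in 24-well plates. The 3 wells with 100 nM homoharringtonine and 18 wells with DMSO, the solvent, serve as reference levels. The line carried no engineered allele and every group shared the same medium, and nothing in the labels says that replicate wells were separate cultures, so p-values measure only the spread between these wells.

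Homoharringtonine is a plant alkaloid that occupies the aminoacyl-tRNA site of the large ribosomal subunit and blocks the first rounds of peptide elongation. It is used against chronic myeloid leukaemia, and the study lists the cap-binding factor EIF4E as its target. When translation stops, short-lived proteins are lost first, among them transcriptional repressors and factors that degrade mRNAs, and transcripts of immediate early genes are known to accumulate. The question of the comparison was which transcripts still moved on the last 10-fold increase in dose.

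The number that passed the test was 154 with edgeR and depended on the processing. A gene was called at an adjusted p under 0.05 (edgeR quasi-likelihood test, Benjamini-Hochberg adjustment over all genes tested) with a log2(Fold Change) above 1 or below -1. By this rule 50 of 18226 tested genes (0.274%) were higher at 10000 nM than at 1000 nM and 104 (0.571%) were lower, 154 in all (0.845%). Transcripts that fell included RRAD, the EGR corepressors NAB1 and NAB2, MYC and the amino acid transporter gene SLC7A1. Transcripts that rose included CCNL1, SAT1, ACTN2 and copies from duplicated gene families such as NF1P, NBPF and AGAP. At adjusted p alone, 113 genes (0.62%) were higher and 174 (0.955%) lower, 287 in all (1.57%), and 2937 had an unadjusted p under 0.05. At adjusted p alone DESeq2 gave 437 higher and 554 lower, and an offset for GC content in each library gave 1114 and 1217. A called value is a share of its library, so fewer cells in a well and less RNA per cell cannot be told apart.

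The number of calls depended on single wells. The same test gave 0 calls, with or without the fold threshold, when any 1 of the 3 wells at 10000 nM or replicate 2 at 1000 nM was left out. Between 1782 and 2233 genes then had an unadjusted p under 0.05, and the lowest adjusted p was 0.0544 without replicate 2 at 1000 nM and between 0.0883 and 0.128 without a well at 10000 nM. Without replicate 1 at 1000 nM, 98 genes were higher and 119 lower, and without replicate 3, 82 and 139. A fit of all 9 homoharringtonine wells, which estimates the spread from 3 doses, called 56 genes higher and 148 lower. When each of the 6 wells was left out of that fit in turn, a check added after the data were seen, 16 of the 50 rises and 68 of the 104 falls kept an adjusted p under 0.05 every time.

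The library of replicate 1 at 1000 nM stood apart from the others. Its slope of log2 CPM (counts scaled to library size) on GC content was 0.26 per 10 percentage points, against -0.17 and -0.39 in the other 2 wells at 1000 nM and -0.41 to -0.27 in the 3 wells at 10000 nM. Mitochondrially encoded mRNAs took 0.156% of its counts, against 0.246% to 0.285% in the other 5 libraries. The 6 libraries summed to between 36655800 and 57390919 expected counts. Genes lower at adjusted p alone had a median GC content of 56.0%, genes higher 48.2% and all other tested genes 50.2%. With an offset for GC content in each library, 107 genes were higher and 148 lower, and of the 154 called genes 151 had an adjusted p under 0.05 and 113 a log2(Fold Change) beyond 1. Scaling by library sizes alone gave 73 and 91, and an offset for transcript length gave 32 and 121. After scaling to the 13 mitochondrial mRNAs, which moved the median of all genes by -0.25, there were 0 calls, with 1279 genes at an unadjusted p under 0.05.

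The marker genes were mixed, with some mesenchymal genes and keratins both present. VIM had 969 to 1135 TPM in the 6 wells, SPARC 222 to 506 and COL1A1 44.2 to 92.6. COL1A2, SP7 and BGLAP, which mark bone-forming cells, stayed under 0.5 TPM, and RUNX2 (0.74 to 1.95 TPM) and ALPL (1.28 to 1.67 TPM), of the same lineage, were low. KRT8 (256 to 417 TPM) and KRT18 (973 to 1204 TPM) were also present, with EPCAM at 3.74 to 6.99, while CD3E was at 0 and PTPRC, PECAM1 and CDH5 were under 0.5 TPM.

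The step was smaller than the one before it. From 100 to 1000 nM, 1062 genes were higher and 787 lower among 17526 tested (10.6%), and from DMSO to 100 nM 2939 were higher and 3632 lower among 18848 (34.9%). The median absolute log2(Fold Change) was 0.24 for 10000 against 1000 nM, 0.38 for 1000 against 100 nM and 0.72 for 100 nM against DMSO. Against DMSO, 1000 nM had 4122 genes higher and 4011 lower (42.4%), and 10000 nM had 4565 and 4523 (47.0%). These last 2 comparisons share wells with the step, so they are given only side by side. A test of the difference between this step and the one from 100 to 1000 nM called 474 of 18315 genes at adjusted p alone (2.59%), with the wells at 1000 nM in both steps.

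The same 10-fold step was fitted for the other 5 compounds of the series, which share no well with homoharringtonine. Miglitol, an inhibitor of sugar-digesting enzymes, gave more calls than homoharringtonine, 398 genes higher and 46 lower (2.55%). With genes split into 10 bins of GC content, its median ran from 0.70 in the lowest bin to -0.34 in the highest, and with the GC offset it had 89 and 76 calls. Nilotinib had 102 higher and 0 lower (0.587%), pyrazolanthrone 49 and 26 (0.442%), triptolide 0 and 3 (0.0191%) and MK-2206 1 and 0 (0.00578%). The same medians for homoharringtonine ran from 0.29 to -0.24. Miglitol thus had more calls than homoharringtonine in the fit without an offset. It also had more with DESeq2 (557 against 120 and 170), without a filter on low counts (732 against 73 and 120) and with at least 10 counts in every well (409 against 53 and 100). It had fewer with the GC offset (89 and 76 against 107 and 148) and with the replicate block (0 against 35 and 87). Medians moved with GC content for both compounds.

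**Figure D1:**
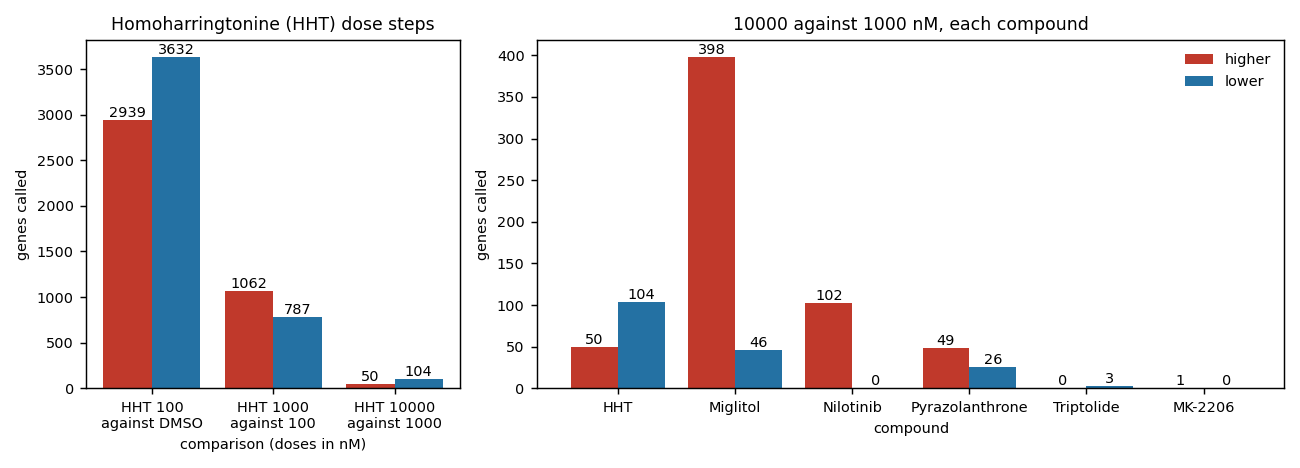
Genes called at adjusted p under 0.05 with a log2(Fold Change) above 1 (red, higher) or below -1 (blue, lower), for 3 homoharringtonine comparisons (left) and for 10000 against 1000 nM of 6 compounds (right). The homoharringtonine counts fall from 2939 and 3632 to 50 and 104, and miglitol has 398 and 46 at the same step.

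**Figure D2:**
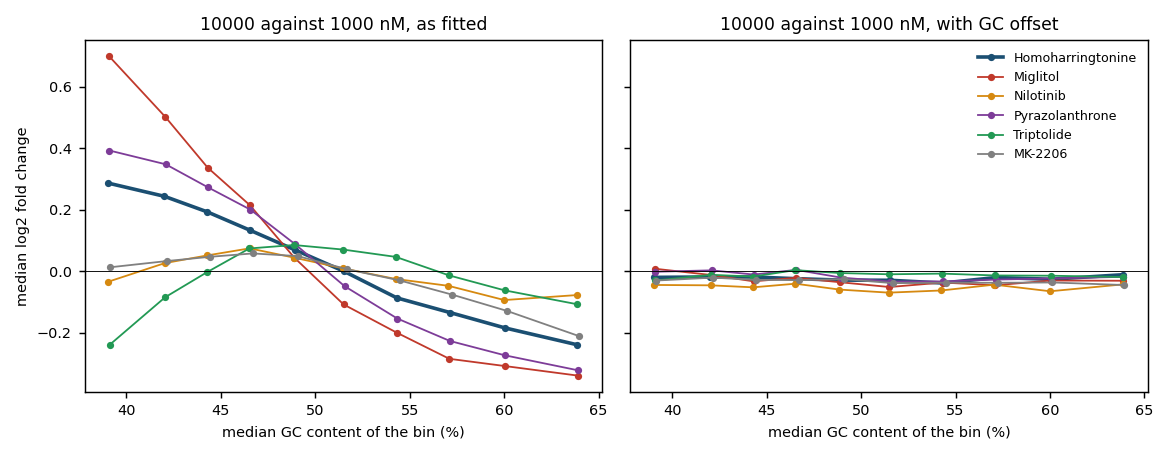
Median log2(Fold Change) for 10000 against 1000 nM in 10 bins of genes ordered by GC content (x axis, percent), one line per compound, as fitted (left) and with an offset for GC content (right). The homoharringtonine line runs from 0.29 to -0.24 as fitted and lies between -0.04 and -0.01 with the offset.

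Calls shared with another compound were set beside the share of all genes called there. Of 95 homoharringtonine falls tested with miglitol, 0 fell there (0.0% of each list, beside 0.264% of all genes), and of 43 rises 1 rose (2.33% of these rises and 0.269% of the miglitol rises, beside 2.29% of all genes). At adjusted p alone 13 of 165 falls (7.88%) also fell and 8 of 105 rises (7.62%) also rose with miglitol, beside 6.73% and 6.72% of all genes. With pyrazolanthrone 4 of 94 falls also fell (4.26% of these falls and 16.7% of the falls with pyrazolanthrone, beside 0.153% of all genes), and at adjusted p alone 10 of 164 (6.1%, beside 0.33%). These shares are descriptions, with no test. With nilotinib, triptolide and MK-2206, 0 calls were shared in the same direction under either rule. By the fold rule 0.587% of all genes rose and 0% fell with nilotinib, 0% and 0.0191% with triptolide and 0.00578% and 0% with MK-2206. With so few calls there, the 0 cannot show whether these compounds differ. At adjusted p alone 5 of 165 falls were higher with nilotinib (beside 0.627% of all genes), 1 of 163 with MK-2206 and 0 of 156 with triptolide. The homoharringtonine falls had a median log2(Fold Change) of -0.19 at the miglitol step and -0.28 at the pyrazolanthrone step, beside 0.00 and 0.02 for all genes.

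Of the 104 falls 91 were protein coding (87.5%), beside 14860 of the 18226 tested genes (81.5%). The largest called fall of a protein-coding gene was that of RRAD, a small GTPase of the RGK family that restrains voltage-gated calcium channels. It had 107, 82.9 and 74.9 CPM in the 3 wells at 1000 nM and 9.83, 12.5 and 9.63 CPM at 10000 nM, a log2(Fold Change) of -3.02 ± 0.19 (SE, adjusted p = 0.0085 by edgeR's quasi-likelihood test). At 100 nM it had 45.4 to 63.5 CPM, and in the 18 DMSO wells 0.199 to 1.87. The wells at 10000 nM thus lay below both other doses and above every DMSO well. From 100 to 1000 nM RRAD was 0.74 higher (adjusted p = 0.044), and the difference between the 2 steps was -3.75 (adjusted p = 0.0035).

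NAB1 and NAB2 encode proteins that bind EGR transcription factors and repress their targets. NAB2 had 286, 214 and 194 CPM at 1000 nM and 54.3, 61.1 and 51.8 CPM at 10000 nM, a log2(Fold Change) of -2.02 ± 0.17 (adjusted p = 0.0095). NAB1 had 87.0, 106 and 132 CPM at 1000 nM and 28.4, 30.4 and 33.0 CPM at 10000 nM, a log2(Fold Change) of -1.80 ± 0.17 (adjusted p = 0.013). For both genes the 2 doses did not overlap, as the rule for naming required. At 10000 nM NAB1 (30.6 ± 2.30 CPM, SD, n = 3) and NAB2 (55.7 ± 4.77 CPM) lay near or below the DMSO medians of 35.3 and 76.5 CPM. At 100 nM NAB2 had 90.9 to 117 CPM and NAB1 102 to 136 CPM, so that NAB2 was highest at 1000 nM.

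The EGR genes themselves, named after their values were seen because NAB1 and NAB2 act on their products, did not pass the test. EGR1 had 5892 to 6902 CPM at 1000 nM and 5002 to 5324 CPM at 10000 nM (log2(Fold Change) -0.26 ± 0.09, adjusted p = 0.21), beside a DMSO median of 68.7 CPM. EGR2 had 168 to 202 and 197 to 212 CPM (0.20 ± 0.11, adjusted p = 0.42), and EGR4 264 to 393 and 460 to 600 CPM (0.77 ± 0.18, adjusted p = 0.094). EGR3 was under 1 CPM in every well, with 0.524 to 0.668 and 0.266 to 0.344 CPM (-0.92 ± 0.25, adjusted p = 0.14). Estimates were thus negative for EGR1 and EGR3 and positive for EGR2 and EGR4.

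The promoters of NAB2 and NAB1 are shown because the EGR consensus was the motif, of 6 searched, whose share differed most between called falls and other genes, and that of CCNL1 because this gene had the largest rise among the named protein-coding genes. Promoters of the falls SLC7A1, LFNG and FLNA and of the rises GPBP1L1 and SAT1 were also searched. They held no match to any of the 6 motifs and are not shown. The falls RRAD and SALL1 had no promoter in the RefSeq table, and the fall KLF10 was left out of the promoters looked at singly. Each promoter shown is the 250 bases before the RefSeq start of the gene (GRCh38.p14), 5′ to 3′ on the strand of the gene, with matches in capitals. NAB2 lies at chr12:57088864-57089113 on the plus strand, NAB1 at chr2:190648645-190648894 on the plus strand and CCNL1 at chr3:157160148-157160397 on the minus strand. Capitals mark GCGNGGGCG on either strand in NAB2 and NAB1, where the pair of matches in NAB1 overlaps, and TGACGTCA in CCNL1.
NAB2: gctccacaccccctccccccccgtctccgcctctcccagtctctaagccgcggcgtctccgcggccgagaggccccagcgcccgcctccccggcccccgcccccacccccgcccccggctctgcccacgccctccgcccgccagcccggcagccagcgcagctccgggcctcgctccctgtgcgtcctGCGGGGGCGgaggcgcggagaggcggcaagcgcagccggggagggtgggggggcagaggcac
NAB1: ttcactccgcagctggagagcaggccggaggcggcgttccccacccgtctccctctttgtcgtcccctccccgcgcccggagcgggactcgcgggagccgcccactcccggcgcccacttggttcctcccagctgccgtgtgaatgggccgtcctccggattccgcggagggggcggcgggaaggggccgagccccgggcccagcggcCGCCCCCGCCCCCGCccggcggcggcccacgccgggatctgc
CCNL1: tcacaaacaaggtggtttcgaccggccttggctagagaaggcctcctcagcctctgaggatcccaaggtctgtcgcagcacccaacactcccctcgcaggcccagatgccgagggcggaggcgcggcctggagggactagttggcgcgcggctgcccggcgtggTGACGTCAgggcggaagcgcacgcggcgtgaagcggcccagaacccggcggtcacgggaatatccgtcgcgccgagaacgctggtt

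Of 123 genes called lower at adjusted p alone that had a promoter in the RefSeq table, 44 (35.8%) held GCGNGGGCG on either strand. The share was 4 of 55 called higher (7.27%), 13.2% of 12551 tested genes and 8.25% of all 27305 promoters. The median GC content of these promoters was 72.8% for called falls, 62.4% for called rises and 64.4% for tested genes, and the part of GC content in the motif share was not tested. TGANTCA was found in 5.69% of called falls and 4.41% of tested genes, TGACGTCA in 2.44% and 2.77%, CACGTG in 8.94% and 8.48%, and TATAAA in 8.94% and 6.46%. For the core of the serum response element a single exact sequence was searched, and other forms of the element were not. It was found in 4 of the 12551 tested genes (0.0319%) and in 0 promoters of called genes. With so few matches among tested genes, the 0 cannot show whether called genes differ or lack the element. A match describes the letters and not a bound site.

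A group of falls had peaked at the lowest dose. MYC, the growth-promoting transcription factor, had 505 to 651 CPM at 100 nM, then 142, 98.9 and 107 CPM at 1000 nM and 35.9, 35.99 and 33.8 CPM at 10000 nM. Its log2(Fold Change) was -1.69 ± 0.16 at the step (adjusted p = 0.013) and -2.27 from 100 to 1000 nM, and the difference between the steps did not pass the test (0.59, adjusted p = 0.30). The DMSO wells had 121 to 173 CPM, so all 3 wells at 10000 nM lay below every DMSO well.

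SLC7A1, the CAT1 transporter for arginine and lysine, had 530 to 626 CPM at 100 nM, 154, 135 and 141 CPM at 1000 nM and 45.3, 45.3 and 45.7 CPM at 10000 nM (log2(Fold Change) -1.63 ± 0.11, adjusted p = 0.0085). INHBA, which encodes the subunit of activin A, had 354 to 409 CPM at 100 nM, 18.1 to 24.9 at 1000 nM and 7.08 to 9.36 at 10000 nM (-1.40 ± 0.18, adjusted p = 0.021). Both ended below the lowest DMSO well, which had 273 CPM of SLC7A1 and 20.3 CPM of INHBA. For INHBA the first step was the larger, and the difference between the steps was 2.73 (adjusted p = 0.0041).

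EBF3, a transcription factor of the early B-cell factor family, had 97.3 to 117 CPM at 100 nM, 13.8 to 17.6 at 1000 nM and 3.69 to 4.27 at 10000 nM (-2.02 ± 0.15, adjusted p = 0.0085), and the DMSO median was 3.93. TRIML2 (116 to 126, then 15.5 to 19.1 and 4.14 to 5.10 CPM) and TCERG1L (46.4 to 56.3, then 21.6 to 29.2 and 5.24 to 6.64 CPM) followed the same order of doses. The gene ENSG00000133808, which GENCODE 44 does not name, had 91.3 to 99.2, 9.001 to 13.9 and 1.79 to 1.84 CPM (-2.58 ± 0.20 at the step, adjusted p = 0.0085). For EBF3 and TCERG1L the wells at 10000 nM were within the DMSO range, which ended at 4.91 and 6.90 CPM.

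Other falls differed from each other in their course between 100 and 1000 nM. SALL1, a zinc finger transcription factor, had 36.3 to 44.5 CPM at 100 nM, 40.7, 35.7 and 42.1 CPM at 1000 nM and 9.20, 9.22 and 11.6 CPM at 10000 nM (-1.95 ± 0.15, adjusted p = 0.0085). Its first step was 0.03 (adjusted p = 0.93) and the difference between the steps -1.97 (adjusted p = 0.0066). LFNG, a glycosyltransferase that modifies Notch, had 181 to 249 and 58.2 to 62.1 CPM (-1.75 ± 0.15, adjusted p = 0.0095), and ELFN1, a synaptic adhesion protein, 64.9 to 101 and 22.7 to 25.7 CPM (-1.63 ± 0.19, adjusted p = 0.019). From 100 to 1000 nM, LFNG (-0.49, adjusted p = 0.10) did not pass the test and ELFN1 fell by 1.29 (adjusted p = 0.010). At 100 nM LFNG had 266 to 339 CPM and ELFN1 171 to 233 CPM, so both were highest at that dose. SALL1, LFNG and ELFN1 at 10000 nM were below their lowest DMSO wells of 16.3, 94.7 and 83.7 CPM.

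P3H3, of the collagen prolyl 3-hydroxylase family, was already far below DMSO at 100 nM. It had 67.1 to 106 CPM in DMSO, 8.64 to 10.9 at 100 nM, 16.2 to 21.9 at 1000 nM and 5.01 to 5.52 at 10000 nM (-1.76 ± 0.16 at the step, adjusted p = 0.010). The difference between the steps was -2.71 (adjusted p = 0.0041). BAIAP2-DT, a long noncoding RNA, had 100 to 153 CPM in DMSO, 16.6 to 21.99 at 1000 nM and 5.68 to 7.21 at 10000 nM (-1.47 ± 0.17, adjusted p = 0.017). LINC01116 (8.31 to 9.51, then 3.30 to 3.97 CPM) and the processed pseudogene RPL23AP53 (10.6 to 12.0, then 3.30 to 4.54 CPM) were the other noncoding falls named by the rule.

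**Figure D3:**
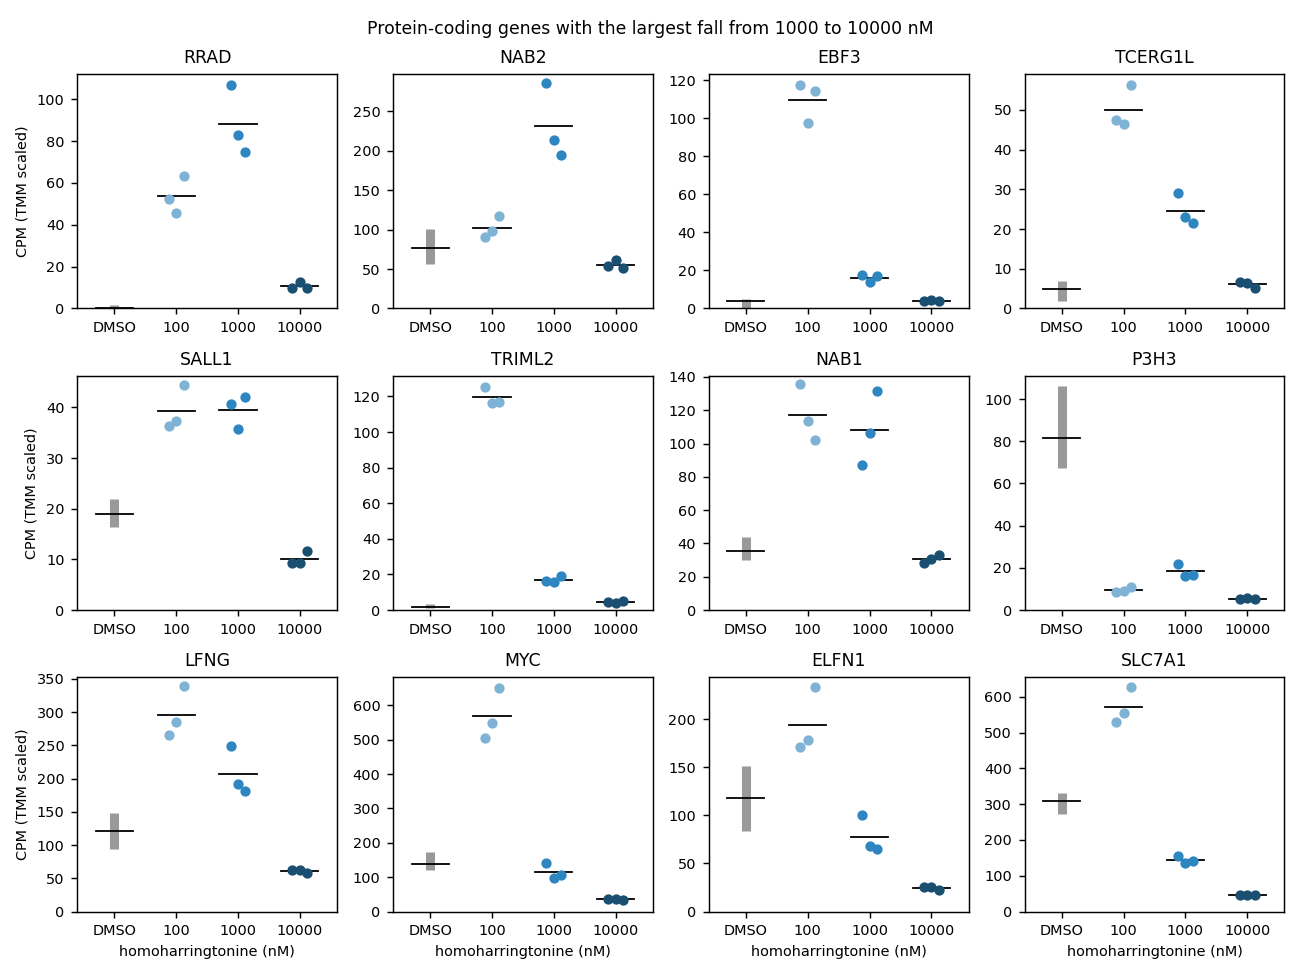
CPM, scaled by the trimmed mean of M values, for the 12 named protein-coding falls, in DMSO (grey bar, range of 18 wells) and at 100, 1000 and 10000 nM homoharringtonine (points, 3 wells each). Black lines are DMSO medians and dose means, and in each panel the wells at 10000 nM lie below those at 1000 nM, as the rule for naming required.

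The falls were set beside the response at the lowest dose, in wells the step did not use. Of the 104 falls, 54 (51.9%) had been called higher at 100 nM than in DMSO, which is 1.88% of the 2874 genes higher there, and 11 (10.6%) had been lower. Among all 17159 genes tested in both, 16.7% were higher and 16.2% lower. Of the 45 rises tested in both, 6 (13.3%) had been higher, 9 lower and 30 (66.7%) not called. The share of called falls that lay above DMSO at 100 nM was thus 51.9%, beside 16.7% of tested genes, a description with no test.

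Of the 50 rises 22 were protein coding, beside 81.5% of tested genes, with no test of the difference. CCNL1, a cyclin of nuclear speckles with a part in splicing, had 34.2 to 41.1 CPM at 100 nM, 103, 133 and 137 CPM at 1000 nM and 299.6, 299.0 and 307 CPM at 10000 nM. The DMSO wells had 12.3 to 28.1 CPM. Its log2(Fold Change) at the step was 1.31 ± 0.13 (adjusted p = 0.013), after 1.76 on the step before. CCNL1 thus went up with each dose.

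SAT1 encodes the acetyltransferase that starts the breakdown of spermidine and spermine. It had 24.8, 31.7 and 31.6 CPM at 1000 nM and 59.7, 66.3 and 54.1 CPM at 10000 nM (1.06 ± 0.15, adjusted p = 0.026), with 8.34 to 10.5 CPM at 100 nM and at most 5.62 CPM in DMSO. ACTN2, an alpha-actinin of the muscle Z-disc, had 61.1 to 86.9 and 145 to 151 CPM (1.06 ± 0.15, adjusted p = 0.027), with 11.6 to 12.98 CPM at 100 nM and a DMSO median of 0.646 CPM. With the GC offset ACTN2 was 0.79 higher with an adjusted p of 0.075, and the length offset gave an adjusted p of 0.061. GPBP1L1 had 58.4 to 67.2 and 125 to 135 CPM (1.05 ± 0.11, adjusted p = 0.013), after 18.2 to 22.9 CPM at 100 nM and a DMSO median of 94.4 CPM. GPBP1L1 thus first lay below DMSO and then climbed back past the highest DMSO well of 112 CPM. The named rise ENSG00000259176 took a like course. It was lower than DMSO at 100 nM (log2(Fold Change) -1.16, adjusted p = 0.0019 by edgeR's quasi-likelihood test). At 10000 nM it had 9.27 to 10.07 CPM, above the highest DMSO well of 5.03 CPM. Its adjusted p at the step reached 0.0502 with 1 well left out of the fit of 9 wells.

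CHKB and CPT1B are neighbours on chromosome 22 (chr22:50578959-50601455 and chr22:50568861-50578465, GRCh38), and a readthrough transcript CHKB-CPT1B is annotated over both, so their counts cannot be taken as separate. CHKB, a choline kinase, had 12.97 to 16.4 CPM at 1000 nM and 28.1 to 34.4 at 10000 nM (1.09 ± 0.14, adjusted p = 0.023). CPT1B, the muscle form of carnitine palmitoyltransferase, had 25.1 to 34.9 and 58.1 to 63.1 CPM (1.03 ± 0.15, adjusted p = 0.030). SULT1A3, a sulfotransferase with a near-identical copy, had 15.02 to 20.9 and 32.6 to 37.4 CPM (1.05 ± 0.16, adjusted p = 0.035), and its share of reads with that copy is uncertain. With 1 well left out of the fit of 9 wells, the adjusted p by edgeR's quasi-likelihood test reached 0.071 for CPT1B and 0.14 for SULT1A3.

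**Figure D4:**
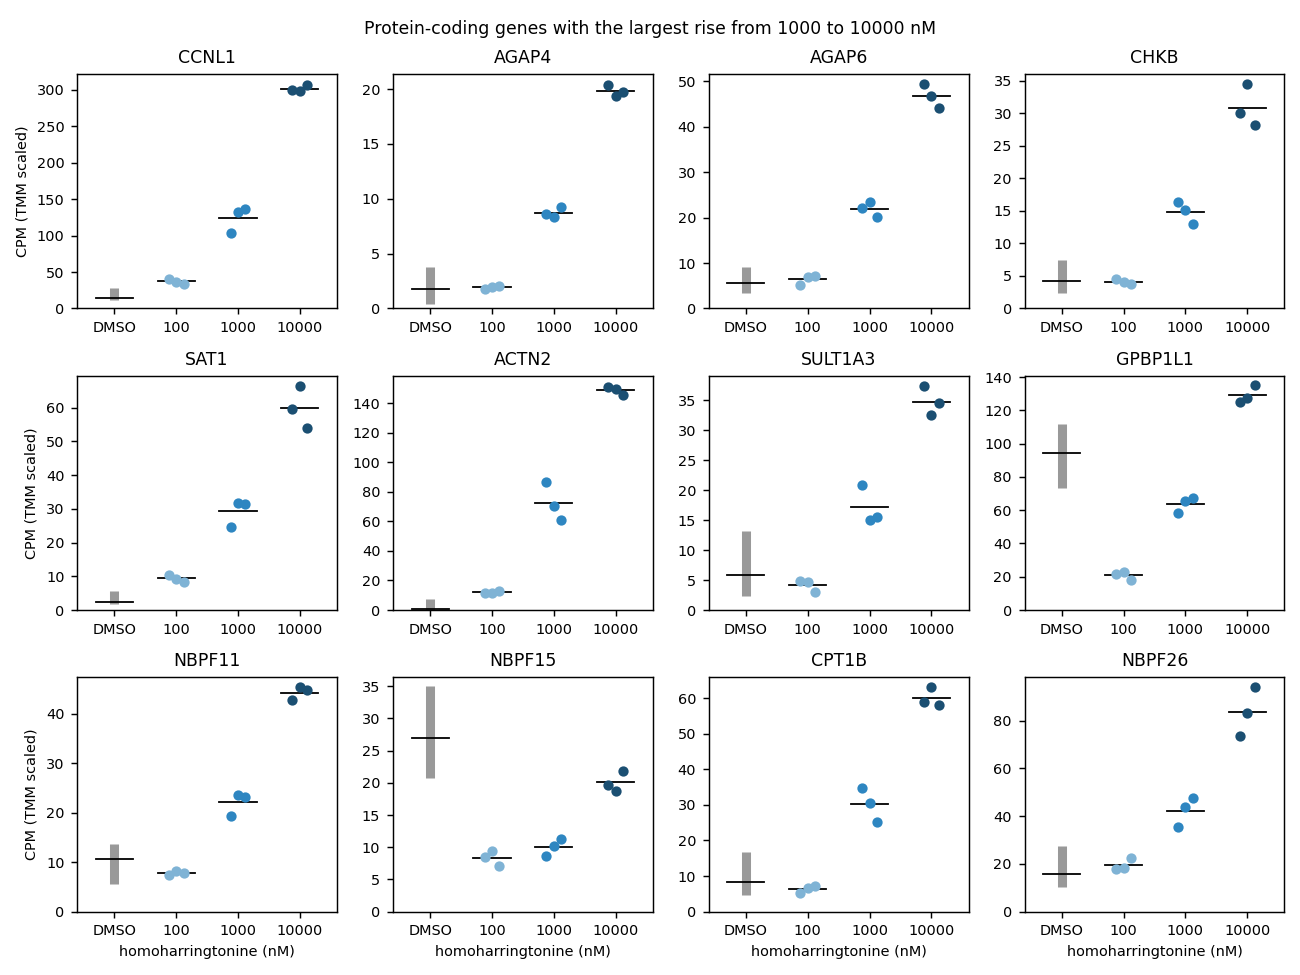
CPM for the 12 named protein-coding rises, in DMSO (grey bar, range of 18 wells) and at 100, 1000 and 10000 nM homoharringtonine (points, 3 wells each), with lines at DMSO medians and dose means. The wells at 10000 nM lie above those at 1000 nM in each panel, as the rule for naming required, and CCNL1 reaches 299.0 to 307 CPM.

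Members of 12 duplicated families, picked out after their values were seen, were 21 of the 113 rises at adjusted p alone. These families had 120 tested members, and 0.62% of all tested genes were called higher by this rule. RSEM divides reads among near-identical copies, so the value of each copy is uncertain. Of 483 unprocessed pseudogenes tested, 29 (6.0%) were higher and 0 lower at adjusted p alone, with a median log2(Fold Change) of 0.45, beside 0.04 for all genes. Of 14860 protein-coding genes 62 were higher (0.417%) and 158 lower (1.06%), and of 590 processed pseudogenes 2 were higher and 3 lower. Pseudogenes took 0.510% to 0.531% of counts at 100 nM, 0.592% to 0.613% at 1000 nM and 0.734% to 0.762% at 10000 nM, with no overlap between doses.

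Of 8 tested NF1P copies, partial copies of the neurofibromin gene, 6 were higher and 0 lower, with log2(Fold Change) from 0.99 to 1.97. NF1P2 had 4.89, 8.87 and 9.36 CPM at 1000 nM and 29.7, 29.4 and 29.4 CPM at 10000 nM (1.97 ± 0.24, adjusted p = 0.019), and at most 1.05 CPM in DMSO. NF1P8 had 18.02 to 22.4 and 53.8 to 55.8 CPM (1.43 ± 0.13, adjusted p = 0.010). NF1 itself had 153 to 362 and 263 to 345 CPM and did not pass the test (0.21 ± 0.29, adjusted p = 0.73). The wells of NF1 overlapped, with its lowest level in replicate 1 at 1000 nM.

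Of 16 tested NBPF genes, the neuroblastoma breakpoint family, 5 were higher, of 7 HERC2P copies 4, and of 12 genes of the AGAP4 group 3, with 0 lower in any of these. NBPF11 had 19.4 to 23.6 CPM at 1000 nM and 42.8 to 45.5 at 10000 nM (1.04 ± 0.12, adjusted p = 0.019). AGAP4 had 8.31 to 9.23 and 19.3 to 20.4 CPM (1.22 ± 0.11, adjusted p = 0.012) and AGAP6 20.2 to 23.4 and 44.1 to 49.3 CPM (1.12 ± 0.12, adjusted p = 0.013). HERC2, the full-length gene, had 76.3 to 79.3 and 60.4 to 72.02 CPM and did not pass the test (-0.22 ± 0.12, adjusted p = 0.40). In the GOLGA8, SMG1P, PMS2P and WASH groups 0 members passed, although their medians were between 0.44 and 0.69. Of 14 tested genes of the ANKRD20A/36 group 0 passed, with a median of 0.85. ENSG00000260157, another unprocessed pseudogene, had 27 to 41.5 and 100 to 113 CPM (1.59 ± 0.19, adjusted p = 0.018).

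The named genes were then placed in pathways with 40 gene lists. Of these lists 27 had no member called at adjusted p alone and 3 had 2 or more. The medians and signs of list members were not adjusted for GC content, and its part in them was not tested. Over all genes the median ran from 0.29 in the lowest of 10 GC bins to -0.24 in the highest. In the fit of 9 wells 224 of 18315 genes (1.22%) were higher and 386 (2.11%) lower at adjusted p alone, the shares to set beside the list counts of that fit. Of the 51 named genes 34 kept an adjusted p under 0.05 whichever of the 6 wells was left out of it, among them the list members MYC, KLF10, INHBA, SMAD3, LAMC1, INSIG1, SRXN1 and H4C14. The list members CSRNP1, FOSL2, CCN1, SPRY2, COL1A1, COL4A1, FLNA, TUBB6, XBP1, GADD45A and VGF did not. Nor did the named rises SULT1A3, CPT1B, NBPF26, NBPF15 and ENSG00000259176, or EIF4E, which was not called at the step. In the list of immediate early transcription factors, 4 of 28 fell and 0 rose (0.955% of all tested genes fell and 0.62% rose), and the median was -0.25. In the fit of 9 wells 5 fell. KLF10, a TGF-beta-inducible repressor, had 1429, 1499 and 1517 CPM at 1000 nM and 848, 859 and 845 CPM at 10000 nM (-0.77 ± 0.08, adjusted p = 0.013). CSRNP1 had 883 to 1151 and 553 to 616 CPM (-0.74 ± 0.12, adjusted p = 0.041) and the AP-1 subunit FOSL2 443 to 491 and 296 to 304 CPM (-0.59 ± 0.09, adjusted p = 0.038). With the offset for transcript length, CSRNP1 (adjusted p = 0.063) and FOSL2 (0.089) did not pass. KLF10, CSRNP1 and FOSL2 remained above every DMSO well, which reached 129, 176 and 225 CPM, and MYC did not. FOS (-0.01, adjusted p = 0.97), JUN (-0.05, adjusted p = 0.91) and ATF3 (0.26, adjusted p = 0.30) did not pass.

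In the list of TGF-beta and BMP response genes 3 of 28 fell and 0 rose, with a median of -0.29. Beside INHBA these were SMAD3, the receptor-activated signal transducer, with 47.2 to 53.6 and 28.1 to 30.0 CPM (-0.74 ± 0.11, adjusted p = 0.034), and the matricellular gene CCN1 with 273 to 294 and 174 to 198 CPM (-0.59 ± 0.10, adjusted p = 0.045, and 0.051 with the length offset). In the fit of 9 wells 7 of the 28 fell. SPRY2, an inhibitor of receptor tyrosine kinase signalling, was the 1 member of 16 MAP kinase feedback inhibitors that fell, with 24.2 to 26.3 and 15.2 to 16.1 CPM (-0.65 ± 0.11, adjusted p = 0.042), and 3 fell in the fit of 9 wells.

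Among collagen and matrix genes 3 of 26 fell and 0 rose, and 24 of the 26 estimates were negative, beside 8311 of 18226 for all genes. The part of GC content in these signs was not tested. In the fit of 9 wells 6 fell. COL1A1 had 265 to 386 CPM at 1000 nM and 156 to 165 CPM at 10000 nM (-0.92 ± 0.16, adjusted p = 0.048). COL4A1 of basement membranes had 16.1 to 21.5 and 9.76 to 10.1 CPM (-0.85 ± 0.15, adjusted p = 0.044), and the laminin gamma chain gene LAMC1 118 to 138 and 69.2 to 75.7 CPM (-0.79 ± 0.11, adjusted p = 0.030). With the length offset COL1A1 (adjusted p = 0.084) and COL4A1 (0.083) did not pass. All 3 had been far below their DMSO medians of 1853, 388 and 484 CPM at 1000 nM already. Of 23 actin and SRF target genes FLNA, an actin crosslinker, fell (2996 to 3647 and 1846 to 2144 CPM, -0.69 ± 0.12, adjusted p = 0.042, with 0.056 in the fit of 9 wells and 0.062 with the length offset), and of 16 tubulin genes TUBB6 (278 to 383 and 159 to 174 CPM, -0.91 ± 0.14, adjusted p = 0.035).

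Single members fell in further lists. INSIG1, which retains the sterol sensor in the endoplasmic reticulum, was the 1 of 33 sterol and fatty acid synthesis genes, with 29.5 to 33.7 and 12.2 to 13.4 CPM (-1.23 ± 0.12, adjusted p = 0.013). SRXN1, the sulfiredoxin, was the 1 of 25 NRF2 antioxidant genes (166 to 181 and 83.8 to 89.7 CPM, -0.99 ± 0.10, adjusted p = 0.013), and XBP1 the 1 of 24 endoplasmic reticulum chaperone genes (115 to 140 and 79.0 to 81.4 CPM, -0.68 ± 0.12, adjusted p = 0.045). GADD45A was the 1 of 24 p53 targets (466 to 494 and 321 to 335 CPM, -0.51 ± 0.09, adjusted p = 0.046, and 0.051 with the GC offset), and VGF, a neurosecretory peptide precursor, the 1 of 29 calcium channel and neuronal genes (322 to 582 and 128 to 169 CPM, -1.44 ± 0.24, adjusted p = 0.041). GADD45A stayed above the highest DMSO well of 78.7 CPM at both doses.

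In 1 list a member rose. H4C14, a replication-dependent histone H4 gene, had 302 to 334 CPM at 1000 nM and 524 to 580 CPM at 10000 nM (0.80 ± 0.10, adjusted p = 0.019), with a DMSO median of 37.6 CPM. It was the 1 of 41 histone genes called, the list had a median of 0.28, and 6 of 40 rose in the fit of 9 wells. Histone H4 genes have near-identical coding sequences, so the division of reads among them is uncertain. The libraries were poly(A)-selected, so these counts cover only the histone transcripts that this selection kept.

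**Figure D5:**
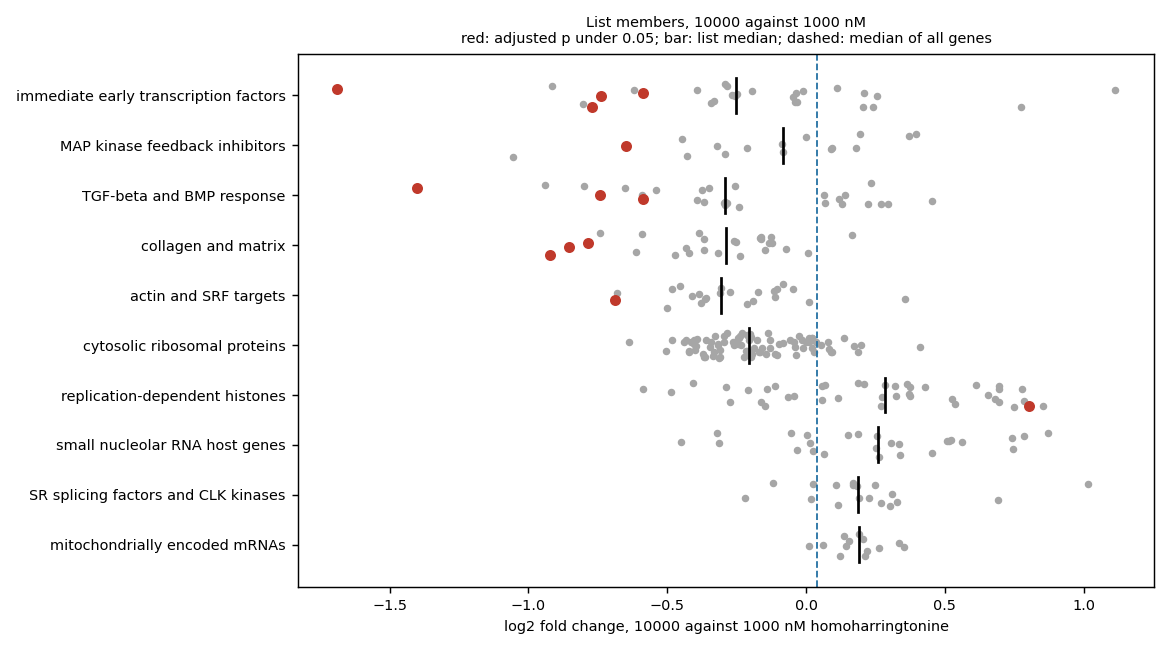
Log2(Fold Change) for 10000 against 1000 nM homoharringtonine of the tested members of 10 gene lists, red where the adjusted p was under 0.05, with a bar at each list median and a dashed line at the median of all genes (0.04). Immediate early, TGF-beta and matrix lists have 4, 3 and 3 red points, all below 0, and the histone list has 1, above 0.

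Lists with the machinery of the drug's own pathway held no called gene at this step by edgeR's quasi-likelihood test. The same held for 27 of the 40 lists in all, and 1.57% of all tested genes were called at adjusted p alone. The 0 counts therefore do not set these lists apart. Of 53 translation initiation and elongation factors 0 were called, with a median of -0.03, and EIF4E had 56.7, 109 and 122 CPM at 1000 nM and 104, 101 and 110 CPM at 10000 nM (0.16 ± 0.27, adjusted p = 0.76). The wells of EIF4E overlapped and the sign turned without replicate 1 at 1000 nM (-0.11) and with the GC offset (-0.09). Of 87 cytosolic ribosomal protein genes 0 were called, and 70 estimates were negative with a median of -0.21. The lists for the stalled ribosome response (21 genes), ATF4 and the integrated stress response (29), aminoacyl-tRNA synthetases (20) and nonsense-mediated decay (16) also had 0 called, with medians from -0.08 to 0.03.

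Small nucleolar RNA host genes, whose spliced RNAs are known to be degraded during translation, had a median of 0.26 with 21 of 26 estimates positive and 0 called, and 3 rose in the fit of 9 wells. SR splicing factor and CLK genes had a median of 0.19 (16 of 18 positive, 0 called) and zinc finger genes of chromosome 19 a median of 0.25 (162 of 212 positive, 0 called). Mitotic genes (54 tested, median 0.17), DNA replication genes (56, 0.03), NF-kB feedback genes (15, -0.09), cytokines (15, 0.06) and proteasome subunits (37, -0.08) had 0 called, beside 1.57% of all tested genes. The medians of these lists were within 0.25 of that of all genes (0.04), and the fit with 9 wells called 0 mitotic, cytokine, NF-kB or proteasome genes.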

How the data were processed

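Poly(A)-selected, stranded RNA-seq libraries of U2OS wells were deposited as gene tables made by the authors with RSEM, with GRCh38 and the names HTSeq, RSEM and DESeq2 in the submitters' processing notes. Versions, aligner and annotation release are not given in the sources used here. The deposited expected counts are RSEM's estimated counts, which need not be whole and were rounded, and the deposited TPM values were used for markers only. Genes were named from GENCODE 44 (56104 of 60371 matched).

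Counts of the 6 wells were fitted with edgeR 4.0.16 (R 4.3.3), TMM scaling and filterByExpr with a minimum count of 10. Genes were called at an adjusted p under 0.05 with a log2 fold change beyond 1. The study gives these thresholds, with DESeq2, for its DRUG-seq compound profiles. For population RNA-seq it used a higher fold cutoff to choose the reference genes for judging DRUG-seq. DESeq2 1.42.0, other scalings, filters, offsets and wells were alternatives. CPM were scaled over the 9 homoharringtonine and 18 DMSO wells.

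Genes were named as follows: among called genes without overlap of the doses, the 12 largest protein-coding rises and falls at a mean of at least 10 CPM and the 4 largest of other biotypes at 5 CPM, up to 4 called members of each list at 1 CPM, and EIF4E. Members and lists were chosen with earlier results of these data known, and motifs, families and EGR genes after values were seen. Replicate numbers were not taken to pair wells.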

Additional observations from a re-analysis of the deposited data

Results flagged for a closer look

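The dose steps of homoharringtonine from 100 to 1000 nM and from 1000 to 10000 nM were compared gene by gene in 1 fit of the 9 wells, and a test of the difference between the steps picked out 221 genes whose second step lay above the first and 253 whose second step lay below it (edgeR quasi-likelihood test, adjusted p under 0.05). Among the 51 named genes 16 differed. RRAD, NAB2 and P3H3 were higher at 1000 nM than at 100 nM and then lower at 10000 nM, with differences of -3.75, -3.22 and -2.71 on the log2 scale. NAB1 (-1.70, adjusted p = 0.017), SALL1 (-1.97, adjusted p = 0.0066) and KLF10 (-1.26, adjusted p = 0.0041) also had the lower second step. INHBA (2.73) and CCN1 (0.86, adjusted p = 0.024) lay lower at each dose, with the larger drop on the first step. ACTN2 (-1.55, adjusted p = 0.012), CPT1B (-1.23, adjusted p = 0.047) and AGAP4 (-0.99, adjusted p = 0.032) rose by less on the second step than on the first. Both steps use the 3 wells at 1000 nM with opposite sign, so a well that stands apart there moves the 2 steps in opposite directions. Without replicate 2 at 1000 nM the counts were 6 and 12, and without replicate 1 they were 397 and 465.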

How the results depend on the processing

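Each count was recomputed under the alternatives, of which the GC offset in the other compounds and the 9-well fits with a GC offset or with a well left out were added after the data were seen. Counts are given as higher and lower. For 10000 against 1000 nM, DESeq2 gave 120 and 170 (437 and 554 at adjusted p alone), the GC offset 107 and 148 (1114 and 1217), the length offset 32 and 121, the fit of 9 wells 224 and 386 at adjusted p alone, with a GC offset 105 and 171 (1310 and 1669), the fit of 9 homoharringtonine and 18 DMSO wells 43 and 161 (210 and 497), and scaling to mitochondrial mRNAs 0 and 0. With 1 well left out the counts ranged from 0 to 98 higher and from 0 to 139 lower (0 to 770 and 0 to 666 at adjusted p alone), and in the 9-well fit from 16 to 139 and from 77 to 180 (34 to 315 and 98 to 475). With the replicate block they were 35 and 87 (47 and 104 at adjusted p alone), and same-numbered wells share no stated batch. Their deviations from the dose means correlated by 0.41, 0.013 and 0.73 between 1000 and 10000 nM, and not every well correlated best with its own number. The sign of EIF4E turned with the GC offset (-0.089 in 6 and in 9 wells) and without replicate 1 at 1000 nM, so that with a well left out its log2(Fold Change) ran from -0.11 to 0.34 (-0.14 to 0.34 in the 9-well fit), and the other 50 named genes kept their sign in every fit listed.

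For 1000 against 100 nM the replicate block gave 154 and 206, mitochondrial scaling 309 and 245, and leaving out a well 451 to 1450 and 439 to 1102. The difference between the steps gave 0 and 0 with the replicate block, 544 and 587 with DESeq2, 0 and 1 with mitochondrial scaling and 145 higher without a filter, and 6 to 397 and 12 to 465 with a well left out. Without a filter 100, 1000 and 10000 nM had 4523, 6827 and 7673 genes higher than DMSO, and with at least 10 counts in every well 826 and 1239, 1276 and 1337, and 1435 and 1500. Leaving out a well gave 2870 to 2978 and 3366 to 3685 at 100 nM, 3977 to 4315 and 3869 to 4272 at 1000 nM, and 4462 to 4610 and 4445 to 4511 at 10000 nM.

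At the same step of other compounds the replicate block gave 0 calls for miglitol and triptolide, 34 for nilotinib, 119 for pyrazolanthrone and 68 for MK-2206. DESeq2 gave 557 for miglitol, 173 for nilotinib, 152 for pyrazolanthrone, 34 for triptolide and 30 for MK-2206. The GC offset gave 165 for miglitol, 188 for nilotinib, 125 for pyrazolanthrone, 7 for triptolide and 5 for MK-2206. Without a filter miglitol had 732, pyrazolanthrone 155, triptolide 13 and MK-2206 6, and with the stricter filter nilotinib had 67 and triptolide 5. Triptolide had 0 without replicate 1 at 1000 nM, which had 9628355 expected counts, beside 10719474 in replicate 2 and 57386507 in replicate 3. The causes of these shifts were not tested, other than that filters change which genes enter and a left-out well leaves fewer samples.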

Other observations

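The further falls given here were chosen after their values were seen. IL6R, the interleukin-6 receptor, had 63.8 to 75.3 CPM at 100 nM, 13.6 to 15.6 at 1000 nM and 3.73 to 4.15 at 10000 nM, a log2(Fold Change) of -1.85 ± 0.13 at the last step (edgeR quasi-likelihood test, adjusted p = 0.0085). NFATC1, a calcium-regulated transcription factor, had 243 to 320 and 98.2 to 106 CPM (-1.38 ± 0.14, adjusted p = 0.013), and BHLHE40, a repressor linked to the circadian clock, 191 to 248 and 75.3 to 82.6 CPM (-1.39 ± 0.14, adjusted p = 0.013). At 10000 nM NFATC1 and BHLHE40 stayed above DMSO medians of 45.6 and 66.5 CPM.

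FLNC, an actin crosslinker of muscle, had 8328 to 13050 CPM at 100 nM, 2219 to 2911 at 1000 nM and 821 to 1029 at 10000 nM (-1.496 ± 0.14, adjusted p = 0.012). CAVIN1, a coat protein of caveolae, had 1752 to 2339 and 746 to 793 CPM (-1.31 ± 0.13, adjusted p = 0.013), and the heparan sulfate proteoglycan GPC1 315 to 420 and 157 to 170 CPM (-1.08 ± 0.14, adjusted p = 0.023). PPARG, a nuclear receptor of adipocyte differentiation, had 27.6 to 32.2 CPM at 100 nM, 43.6 to 65.3 at 1000 nM and 16.9 to 19.3 at 10000 nM (-1.59 ± 0.18, adjusted p = 0.014). PPARG was highest at 1000 nM, as NAB2 and RRAD were, while FLNC, CAVIN1 and GPC1 were highest at 100 nM.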
